A study of Mus musculus with 7 samples.

Results

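The replication-dependent histone genes of the mouse were examined in chromatin accessibility maps of pancreatic islet cells. They were taken as the protein-coding genes of GENCODE vM21 whose symbol begins with Hist1h, Hist2h, Hist3h or Hist4h, which selected 67 of 21938 protein-coding genes. The Hist1 cluster held 54 of them, on chromosome 13, the Hist2 cluster 10, on chromosome 3, the Hist3 cluster 2, on chromosome 11, and the Hist4 cluster 1, on chromosome 6. By product, 6 encode the linker histone H1, 18 encode H2A, 18 encode H2B, 12 encode H3, and 13 encode H4.

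DNA is wrapped around an octamer of the core histones H2A, H2B, H3, and H4, and H1 binds where the DNA enters and leaves it. The genes counted here supply most histone protein while DNA is copied, carry almost no introns, and give transcripts that end in a stem-loop instead of a poly(A) tail. Adult islet cells divide rarely, and replication-independent variants such as H3.3 and H2A.Z replace histones outside S phase.

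ATAC-Seq, in which the Tn5 transposase inserts adapters into open chromatin, had been applied to FACS-sorted islet cells, namely alpha, beta, and delta cells of healthy mice whose age and background strain are not given in the sources used here. The animals carried 3 transgenes: an mIns1-H2b-mCherry reporter that marks beta cells, a Rosa-LSL-YFP reporter, and either Gcg-Cre, which marks the alpha lineage, or Sst-Cre, which marks the delta lineage. Animals were pooled by sex, and every group shared the beta cell reporter, itself a fusion of H2B with mCherry. The study lists alpha 1, beta 2, and delta 1 as female, and alpha 2, beta 1, beta 3, and delta 2 as male. It also lists a further beta library, and it removed 1 beta replicate for a low fraction of reads in peaks. The listed libraries were matched to those used here by number, which is an assumption. The labels do not tie a library to animals. Alpha and delta cells carried YFP in separate crosses, while the cross behind each beta library is not given. By the study's methods, cell types were sorted from shared animals, so the libraries of different groups are not all independent. The lists of open regions, called peaks, came from 2 alpha, 3 beta, and 2 delta libraries.

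Some limits of the libraries come before the results. For the 3 beta lists, file name and label disagree on the cell type, and the labels were followed. These names carry alpha or delta where the labels say beta. The study reports that its replicates clustered by cell type. It also reports that accessibility at Ins2, Gcg, and Sst went with their expression in beta, alpha, and delta cells. The list names also carry a lane, lane 6 for both alpha libraries and beta 1, and lane 7 for beta 2, beta 3, and both delta libraries, so lane and cell type cannot be told apart between alpha and delta cells. Beta 1 stood apart, with 518503 distinct peaks, of which 25903 reached a -log10 q of 2. The other lists held between 75860 and 158066 distinct peaks, and between 32047 and 52057 of those reached that level. Reads were not in the peak lists, so no limit could be set on an absent peak. The study lists the reads of each library elsewhere. By that list, matched by number, the 3 beta libraries used here and the second delta library had fewer unique mapped reads than the others used here, beta 1 the fewest. Whether unique there means placed once or without duplicates is not given in the sources used here. A weaker peak in a sorted pool cannot be told apart from a peak open in fewer of its cells.

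Marker genes set the alpha and delta libraries apart from beta 2 and beta 3, while beta 1 and the beta markers were less clear. Gcg, which encodes glucagon, had a peak within 1 kb of its transcription start site (TSS) at percentile 94.1 in alpha 1, 91.6 in alpha 2, and 47.1 in delta 2, and none in the other 4 libraries. The percentile is the rank of a peak by -log10 p among all peaks of its own library. Sst, which encodes somatostatin, had one at percentile 17.1 in delta 1, 14.4 in delta 2, and 95.5 in beta 1. Ins1, which encodes insulin, had one in all 7 libraries, at percentile 98.7 in beta 1, 41.7 in beta 2, and 86.7 in beta 3, beside 21.2 and 53.3 in alpha and 77.2 and 13.9 in delta libraries, so the groups overlapped. Of the other beta markers, Ins2 had a TSS peak only in beta 3, at percentile 45.3, and Slc2a2 had none. Pdx1 and Ucn3 had one in every library but beta 2, and Mafa and Nkx6-1 in all 7. The beta markers thus did not set beta 2 apart from alpha or delta libraries. All 5 delta markers had a TSS peak in both delta libraries and none in beta 2 or beta 3, but 4 had one in each alpha library and in beta 1. Hhex, a transcription factor of delta cells, had percentiles of 91.3 in delta 1 and 69.4 in delta 2, beside 65.6 and 72.7 in alpha libraries and 48.1 in beta 1. Ppy and Ghrl, the markers of the other islet cells, lacked a TSS peak in every library. Endothelial markers with a TSS peak numbered at most 1 of 3 in any library, and immune markers at most 2 of 4.

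Sequences of 3 promoters shared by an H2A and an H2B gene are shown because 24 of the 67 genes lie in 12 such pairs, and they span the range of peak strength of the pairs. All are on the plus strand of GRCm38 (mm10), between the start sites of the pair, chr13:21810198-21810464, chr13:23683949-23684198, and chr13:23934160-23934458. The last was trimmed at both ends to stay within 300 bases. Capitals mark, on either strand, the TATA box TATAAA, the CCAAT box, the octamer ATTTGCAT, and the H1 element AAACACA.
Hist1h2bq/Hist1h2ao: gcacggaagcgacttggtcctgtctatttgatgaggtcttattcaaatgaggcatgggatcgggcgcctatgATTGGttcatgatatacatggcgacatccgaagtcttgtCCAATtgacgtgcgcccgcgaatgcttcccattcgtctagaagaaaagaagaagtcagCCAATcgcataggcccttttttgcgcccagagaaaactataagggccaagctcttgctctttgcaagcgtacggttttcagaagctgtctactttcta
Hist1h2ac/Hist1h2bc: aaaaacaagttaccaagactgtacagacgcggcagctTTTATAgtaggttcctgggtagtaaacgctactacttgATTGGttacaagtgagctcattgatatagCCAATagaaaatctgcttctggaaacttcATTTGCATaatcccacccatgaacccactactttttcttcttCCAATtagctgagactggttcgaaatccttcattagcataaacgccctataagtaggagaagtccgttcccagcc
Hist1h2ba/Hist1h2aa: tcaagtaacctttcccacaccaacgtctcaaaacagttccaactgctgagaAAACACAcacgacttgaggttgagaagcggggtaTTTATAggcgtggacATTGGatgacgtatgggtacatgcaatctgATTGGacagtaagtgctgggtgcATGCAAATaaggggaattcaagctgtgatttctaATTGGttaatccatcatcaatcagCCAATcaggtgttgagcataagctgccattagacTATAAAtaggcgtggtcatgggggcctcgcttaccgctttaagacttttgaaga
Each of the 3 stretches held at least 3 CCAAT boxes, the motif bound by NF-Y. The Hist1h2ac/Hist1h2bc and Hist1h2ba/Hist1h2aa stretches each held 1 copy of ATTTGCAT, the octamer bound by Oct-1, and Hist1h2bq/Hist1h2ao held none. Hist1h2ba and Hist1h2aa encode the testis histones of this pair.

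Sequences upstream of H1 and H4 genes are shown for the genes the results below turn on, as the 150 bases before the TSS on the strand of the gene. They lie at chr13:23622559-23622708 (minus strand), chr13:23738658-23738807 (plus), chr13:23695664-23695813 (plus), chr13:23553112-23553261 (plus), and chr13:23698455-23698604 (minus) of GRCm38, with the same motifs in capitals.
Hist1h1e: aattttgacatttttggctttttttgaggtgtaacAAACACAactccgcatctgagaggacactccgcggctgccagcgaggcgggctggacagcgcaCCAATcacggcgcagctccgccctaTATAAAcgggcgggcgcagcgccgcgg
Hist1h1c: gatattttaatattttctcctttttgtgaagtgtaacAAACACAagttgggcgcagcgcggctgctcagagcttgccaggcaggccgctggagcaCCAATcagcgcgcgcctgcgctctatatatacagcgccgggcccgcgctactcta
Hist1h1t: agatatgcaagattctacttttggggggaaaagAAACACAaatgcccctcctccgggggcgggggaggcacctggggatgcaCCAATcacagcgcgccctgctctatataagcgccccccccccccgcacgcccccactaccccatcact
Hist1h1d: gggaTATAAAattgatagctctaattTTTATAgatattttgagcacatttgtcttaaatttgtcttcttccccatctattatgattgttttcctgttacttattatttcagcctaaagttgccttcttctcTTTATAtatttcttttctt
Hist1h4c: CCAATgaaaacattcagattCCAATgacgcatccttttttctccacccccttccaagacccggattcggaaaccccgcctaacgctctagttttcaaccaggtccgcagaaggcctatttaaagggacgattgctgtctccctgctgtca
Hist1h1e, Hist1h1c, and the testis gene Hist1h1t each held 1 AAACACA, the element known from H1 promoters, and 1 CCAAT box. The stretch before the annotated start of Hist1h1d held neither, and 3 matches to TATAAA.

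Most histone promoters were open in all 3 cell types. In alpha 1, 63 of the 67 genes had a TSS peak, as did 63 in alpha 2, 61 in beta 1, 58 in beta 2, 62 in beta 3, 64 in delta 1, and 62 in delta 2. The share was 94.0% ± 0 (SD, n = 2) in alpha, 90.05% ± 3.11 (SD, n = 3) in beta, and 94.0% ± 2.11 (SD, n = 2) in delta libraries. Over all protein-coding genes it was 61.2% ± 1.03 (SD, n = 2), 58.5% ± 10.5 (SD, n = 3), and 59.3% ± 4.24 (SD, n = 2). The histone share lay above that of all genes in every library.

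**Figure D1:**
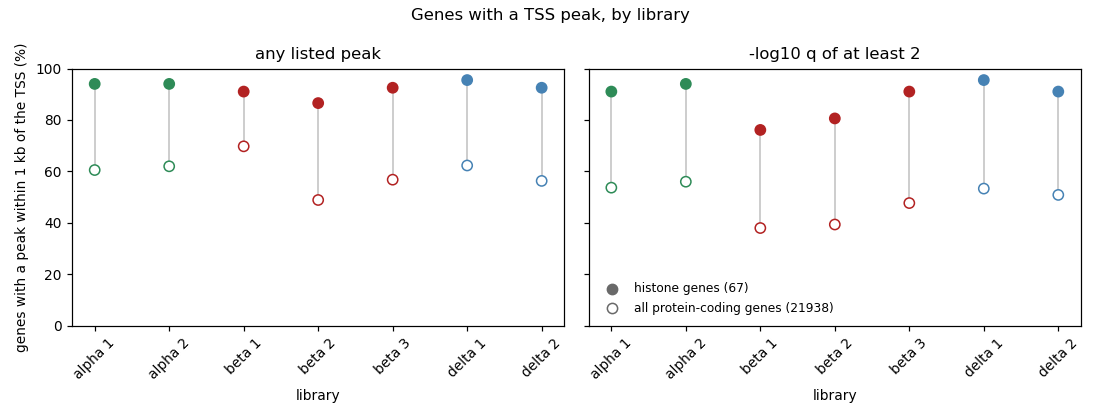
Percentage of genes with a peak within 1 kb of the TSS in each library, for any listed peak (left) and for peaks past a -log10 q of 2 (right). Filled circles are the 67 histone genes and open circles all 21938 protein-coding genes, and the filled circle lies above the open one in each of the 7 libraries, between 86.6% and 95.5% on the left.

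In all 7 libraries 55 of the 67 genes had a TSS peak, which is 82.1%, beside 41.5% of all protein-coding genes. In no library had 2 of them one, which is 2.99%, beside 17.3% of all genes. With peaks past a -log10 q of 2 only, 47 genes were open throughout, 70.1% beside 31.1%. Promoters rich in CpG are often open, and 71.3% of all genes with a CpG observed/expected ratio of at least 0.6 had a TSS peak in all 7 libraries. Of the 48 histone genes with such a ratio 85.4% had one, and of the 19 with a lower ratio 73.7%, beside 17.8% of all genes with a lower ratio.

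Most peaks were of middling to high rank, and none was among the strongest outside beta 1, while Hist3h2ba and Hist1h4b in beta 2 and Hist1h4i in delta 2 had peaks of low rank (percentiles 12.5, 21.4, and 17.3). The median percentile of the histone genes with a TSS peak was 91.3 in alpha 1, 88.6 in alpha 2, 97.1 in beta 1, 91.2 in beta 2, 91.9 in beta 3, 92.4 in delta 1, and 83.2 in delta 2. The same median over all genes with a TSS peak was 90.3, 90.4, 96.1, 88.2, 89.5, 92.1, and 85.1 in that order. Histone genes were thus open more often than other genes, while their peaks ranked much as those of all genes with a TSS peak in the same library. Set against only the genes with a TSS peak in all 7 libraries, they were weaker in median in every library but beta 2, as given below. In beta 1, where most listed peaks were weak, 19 histone genes lay above the 99th percentile, and in the other 6 libraries 0 did.

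**Figure D2:**
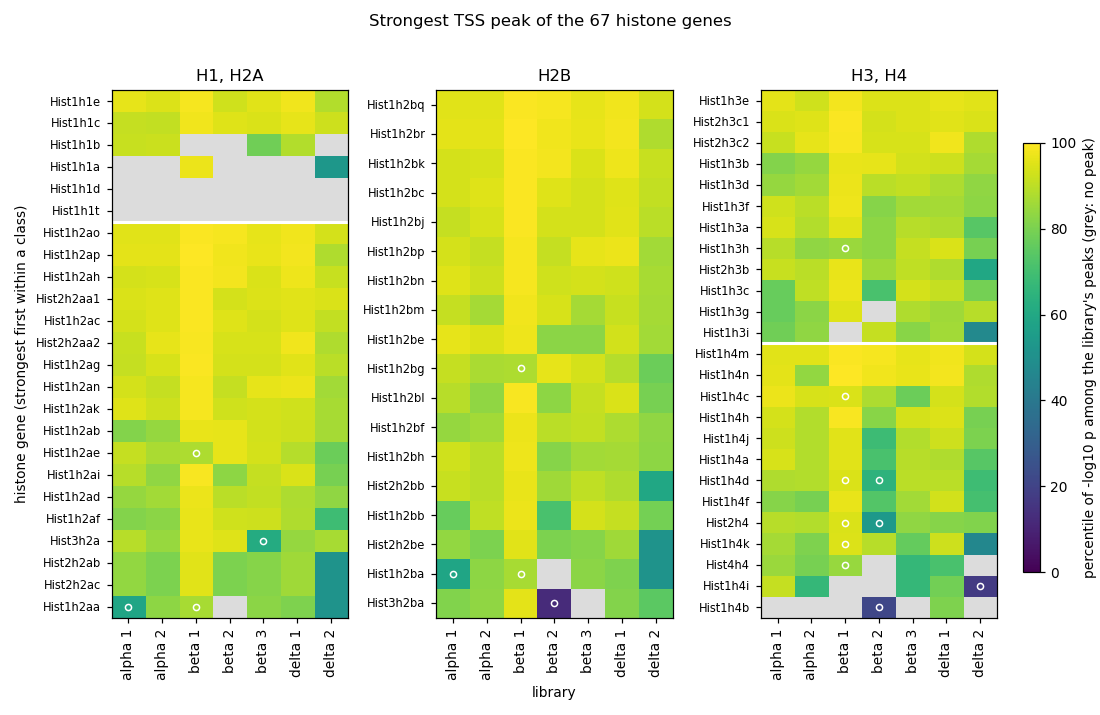
Percentile of the strongest peak within 1 kb of the TSS for each of the 67 histone genes (rows, by class) in each of the 7 libraries (columns). Grey cells have no peak and white rings mark a -log10 q under 2. H2A and H2B rows are filled throughout with few exceptions, while 4 of the 6 H1 rows hold grey cells.

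The classes differed in how many genes were open. A TSS peak in all 7 libraries was found for 17 of 18 H2A genes, 16 of 18 H2B genes, 10 of 12 H3 genes, 10 of 13 H4 genes, and 2 of 6 H1 genes. The median of the mean percentile over the libraries, with an absent peak set to 0, was 91.6 for H2A, 89.7 for H2B, 87.8 for H3, 83.4 for H4, and 35.7 for H1. The H1 value depends on the GENCODE starts and would be higher with start codons. The mean percentile of Hist1h1d was 0 at its GENCODE start and 52.1 at its start codon. For Hist1h1b it was 50.1 and 75.7. By cluster, 44 of 54 Hist1 genes, 10 of 10 Hist2 genes, 1 of 2 Hist3 genes, and 0 of 1 Hist4 gene were open throughout. These counts are descriptions of the annotated genes and carry no test.

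**Figure D3:**
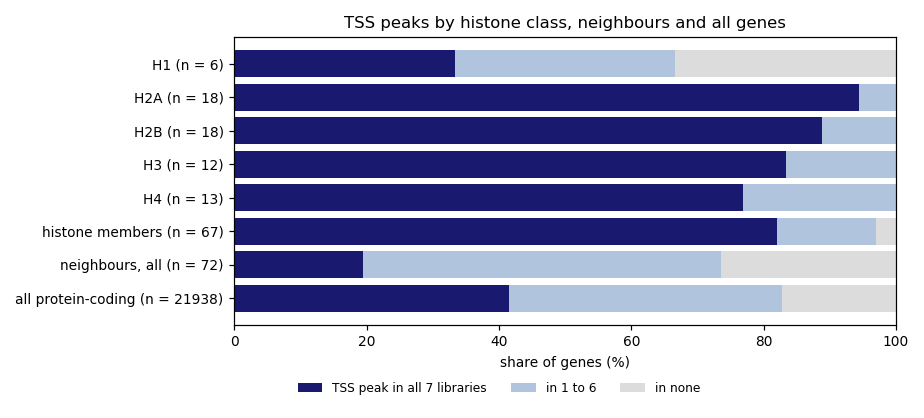
Share of genes with a TSS peak in all 7 libraries (dark), in 1 to 6 (light), and in none (grey), for the 5 histone classes, all histone genes, the 72 other protein-coding genes around the clusters, and all protein-coding genes. The dark bar is longest for H2A, at 94.4%, and shorter for H1, at 33.3%, than for all genes, at 41.5%.

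Of the linker histone genes, Hist1h1e and Hist1h1c were open throughout. Hist1h1e (chr13:23620629-23622558, minus strand), which encodes the somatic linker histone H1.4, had the highest rank of its class. The fold enrichment of its peak, which is how far the summit rose over the background around it, was 10.4 in alpha 1, 10.6 in alpha 2, 6.82 in beta 1, 7.39 in beta 2, 10.2 in beta 3, 11.5 in delta 1, and 8.33 in delta 2. Its summits lay between -25 bp and 69 bp of the TSS, negative values being upstream, and the alpha and delta values overlapped. As deposited the 3 beta values lay below both alpha values, whereas after normalization they exceeded the 4 others. Hist1h1c (H1.2) differed in position. Its strongest peak within the window had its summit between 903 bp and 995 bp downstream of the start in every library, inside the annotated gene (chr13:23738808-23740367), although a peak also reached within 250 bp of the start in all 7 libraries.

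The other H1 genes were open in part or not at all. Hist1h1b (H1.5) had percentiles of 91.8 in alpha 1, 91.9 in alpha 2, 78.4 in beta 3, and 88.4 in delta 1, and no TSS peak in the remaining 3 libraries. Those peaks had their summits 1133 bp to 1159 bp downstream of the start and only their edge reached the window, so within 250 bp Hist1h1b had no peak in any library. In beta 1 and delta 2 the nearest peak lay 1012 bp and 1002 bp from the start, just outside the window, and within 1 kb of the start codon 6 libraries had a peak, all but beta 2. Hist1h1a (H1.1) had a TSS peak in beta 1 (percentile 97.1, summit at -65 bp) and in delta 2 (percentile 52.7, summit at -58 bp) only, both with a -log10 q above 2. The 1 beta and 1 delta library thus differed from the others of their own cell type.

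No library had a TSS peak at Hist1h1d or Hist1h1t. For Hist1h1d (H1.3) the annotation decides this, because its GENCODE start at chr13:23553262 lies 1770 bp upstream of the RefSeq start. At the RefSeq start, where the 300 bases around it held 1 CCAAT and 1 AAACACA, a peak was present at percentile 81.8 in alpha 1, 80.0 in alpha 2, 82.9 in beta 2, 72.4 in delta 1, and 47.9 in delta 2, and absent in beta 1 and beta 3. Hist1h1t (H1t, chr13:23695814-23696725), a linker histone of the male germ line, had its nearest peak between 2182 bp and 2346 bp away from the start in all 7 libraries. The RefSeq start of every other histone gene was within 100 bp of the GENCODE start, so with RefSeq starts Hist1h1t was the 1 gene without a TSS peak.

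The other testis genes behaved differently from Hist1h1t. Hist1h2ba (chr13:23933773-23934156, minus strand) and Hist1h2aa (chr13:23934462-23934851, plus strand) shared 1 peak, at percentile 58.6 in alpha 1, 83.0 in alpha 2, 86.9 in beta 1, 82.7 in beta 3, 80.9 in delta 1, and 51.4 in delta 2. It was absent in beta 2, and in 4 libraries it reached a -log10 q of 2. The summit lay 279 bp to 344 bp downstream of the start of Hist1h2ba, inside this gene, and in no library did the peak overlap the stretch printed above between the pair. This pair ranked lowest among the 12 H2A/H2B pairs.

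Core histone genes are often arranged head to head, and 12 such H2A/H2B pairs, with 24 genes, had start sites between 176 bp and 306 bp apart (median 259.5 bp). In 11 of the 12 pairs both genes had a TSS peak in all 7 libraries, and it was the same peak. That peak did not always overlap the stretch between the 2 starts. It did so in 6 libraries at Hist1h2ag/Hist1h2bj and Hist1h2ae/Hist1h2bg, and in 3 at Hist1h2bf/Hist1h2ad and Hist2h2ac/Hist2h2be. At the rest of these 11 pairs it did so in all 7. The median of the mean percentile was 93.3 for the 24 genes in pairs and 86.1 for the 43 outside, of which 33 were open throughout. Because of such sharing the 63 histone genes with a TSS peak in alpha 1 rested on 37 distinct strongest peaks, and the number was between 36 and 40 in the other libraries. Counts of genes are therefore not counts of independent measurements.

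The pair with the highest mean percentile was Hist1h2bq and Hist1h2ao. The fold enrichment of its peak was 9.36 in alpha 1, 10.98 in alpha 2, 9.13 in beta 1, 10.9 in beta 2, 10.3 in beta 3, 11.04 in delta 1, and 10.3 in delta 2, with summits between -141 bp and -50 bp of the start of Hist1h2bq (chr13:21806612-21810197, minus strand) in all libraries. These values of the 3 cell types overlapped, while after normalization every beta value exceeded the 4 others. Hist1h2ac and Hist1h2bc, the pair with the octamer shown above, had 8.98 in alpha 1, 10.7 in alpha 2, 10 in beta 1, 8.33 in beta 2, 9.22 in beta 3, 9.04 in delta 1, and 10 in delta 2, which overlapped as deposited and were again highest in the 3 beta libraries after normalization. Both peaks lay in the top decile of each library.

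Of the H3 genes, Hist1h3e (chr13:23561534-23562369, minus strand) had the highest mean rank. Its fold enrichment was 11.7 in alpha 1, 10.1 in alpha 2, 6.08 in beta 1, 8.64 in beta 2, 10.5 in beta 3, 11.9 in delta 1, and 13.8 in delta 2, so both delta values exceeded the 5 others as deposited, but after normalization delta 1 lay below alpha 1, beta 2, and beta 3. Hist1h3i (chr13:21782960-21783370, minus strand) had the lowest, with 4.17, 5.12, 6.30, 4.49, 4.78, and 3.53 in alpha 1, alpha 2, beta 2, beta 3, delta 1, and delta 2, and no peak in beta 1. Hist1h3g lacked a peak only in beta 2.

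For H4, the highest rank belonged to Hist1h4m through a peak of its neighbours. The strongest peak in its window was that of the Hist1h2bq/Hist1h2ao promoter, with its summit between -1499 bp and -1408 bp of the start of Hist1h4m, and a summit within 1 kb was found in 4 of 7 libraries. Hist1h4c (chr13:23697635-23698454, minus strand) had a peak of its own, with summits from -50 bp to 121 bp. Its fold enrichment was 14.1 in alpha 1, 10.6 in alpha 2, 3.52 in beta 1, 6.02 in beta 2, 4.71 in beta 3, 9.33 in delta 1, and 9.35 in delta 2, and the 3 beta values lay below the 4 others as deposited, whereas after normalization beta 2 exceeded both delta libraries. Hist1h4b (chr13:23757013-23757409, plus strand) was the least open H4 gene, with a peak in beta 2 (percentile 21.4) and delta 1 (80.7) only.

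The isolated clusters were less open than Hist1 and Hist2. Hist3h2ba (chr11:58948920-58949533) had percentiles of 80.9, 83.3, 96.1, 12.5, 81.6, and 74.8 in alpha 1, alpha 2, beta 1, beta 2, delta 1, and delta 2, and no peak in beta 3. Hist3h2a (chr11:58954685-58956830) was open in all 7 libraries, from percentile 61.5 in beta 3 to 96.7 in beta 1, but its annotated start is also that of Trim17, and the peak cannot be assigned to 1 of the 2 genes. Hist4h4 (chr6:136801553-136804415, minus strand) had percentiles of 84.9 in alpha 1, 79.6 in alpha 2, 84.7 in beta 1, 66.8 in beta 3, and 71.3 in delta 1, with summits 539 bp to 655 bp downstream of the start, and none in beta 2 and delta 2. All 10 genes of Hist2 were open in every library, among them Hist2h2ab, whose start lies beside that of Bola1.

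Differences between cell types were sought first by presence, with a gene taken as selective where 2 or more libraries of a cell type had a TSS peak and no library of the cell type it was set against had one. No histone gene met this in any of the 6 directions. Among all genes 1.29% did for alpha against beta, 2.37% for beta against alpha, 1.21% for alpha against delta, 0.542% for delta against alpha, 2.6% for beta against delta, and 0.807% for delta against beta cells. In at least 2 replicates, alpha cells had 63 open histone genes, beta cells 61, and delta cells 61. With 2 against 3 libraries the smallest p an exact permutation test can give is 0.1, and with 2 against 2 it is 0.333, so presence at a single gene cannot reach 0.05.

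Peak strength was then compared by limma on the quantile-normalized log2 fold enrichment, over the 9112 genes with a TSS peak in all 7 libraries, 55 of them histone genes. After Benjamini-Hochberg adjustment at 0.05, limma called 0 histone genes in each of the 3 comparisons. It called 107 genes in all between alpha and beta cells (1.17%), 1 between alpha and delta cells (0.011%), and 39 between beta and delta cells (0.428%). At an unadjusted p under 0.05, limma listed 10 histone genes (18.2%, beside 18.6% of all genes) for alpha against beta, 0 (beside 6.84%) for alpha against delta, and 8 (14.5%, beside 13.9%) for beta against delta cells. The share of histone genes at that level was near that of all genes in the 2 comparisons with beta cells and below it for alpha against delta cells.

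As a group, the histone peaks stood higher in the beta libraries after quantile normalization, but not on the values as deposited. After normalization the median log2 difference of the 55 genes was -0.45 for alpha minus beta cells, beside -0.02 over all 9112 genes, and 48 of the 55 lay below 0. For beta minus delta cells it was 0.43, beside 0.01, and 51 of the 55 lay above 0. For alpha minus delta cells it was -0.04, beside -0.00028, with 23 of 55 above 0. Counting genes that share their strongest peak in every library once left 36 profiles, of which 30 were higher in beta than in alpha cells and 32 higher in beta than in delta cells. Without normalization, 46 of the 55 genes were higher in alpha than in beta cells, with a median difference of 0.09 beside 0.47 over all genes. Likewise 9 of the 55 were higher in beta than in delta cells, with a median of -0.17 beside -0.52 over all genes.

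The same normalized values were also read gene by gene, with genes that share a peak counted each. Every beta library exceeded every alpha library at 32 of the 55 histone genes (19.3% of all genes), and every delta library at 31 (17% of all genes). The reverse held at 3 genes against alpha (16.8% of all genes) and 0 against delta cells (14.5% of all genes). Every alpha library exceeded every delta library at 8 genes (20.1% of all genes) and the reverse held at 7 (20.3% of all genes). Hist1h2ab and Hist1h3b, which share a peak, had the lowest adjusted p for alpha minus beta, with a log2 difference of -1.09 (SE 0.305, limma adjusted p = 0.0674). Their fold enrichment as deposited was 5.13 in alpha 1, 5.92 in alpha 2, 4.65 in beta 1, 9.78 in beta 2, 9.09 in beta 3, 7.62 in delta 1, and 8.13 in delta 2, so beta 1 exceeded the alpha libraries only after normalization.

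The 3 genes lower in every beta than in every alpha library were Hist1h4c, Hist1h2be, and Hist2h4. For Hist1h4c the log2 difference was 0.81 (SE 0.303, limma adjusted p = 0.159), and the same peak was scored in all libraries. Hist1h2be is a different case, since its annotated start at chr13:23621124 lies 35168 bp from its start codon, inside Hist1h1e. In both alpha libraries its strongest peak had its summit at the promoter of Hist1h1e, at -1446 bp in alpha 1 and -1365 bp in alpha 2. Within 1 kb of the start codon of Hist1h2be, peaks had a fold enrichment of 4.50 in alpha 1, 3.45 in alpha 2, 4.17 in beta 1, 5.84 in beta 2, 3.52 in delta 1, and 6.73 in delta 2, and beta 3 had none, so the values overlapped. At Hist2h4 the summit of the strongest peak lay anywhere from -50 bp to 930 bp of the start among the libraries.

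The direction of the group difference thus depended on the scale, while its position relative to all genes did not. Without normalization, the median log2 fold enrichment of the 55 histone genes minus that of the 9112 genes was -0.34 in alpha 1, -0.43 in alpha 2, -0.26 in beta 1, 0.04 in beta 2, -0.24 in beta 3, -0.55 in delta 1, and -0.45 in delta 2. The 3 beta libraries were thus the nearest to, or above, the median of all genes, and the groups did not overlap, but beta 1 and alpha 1 differed by little. The fold enrichment of 4 of the 55 histone genes exceeded the median of all genes in alpha 1, and of 2 in alpha 2. The number was 24 in beta 1, 28 in beta 2, 15 in beta 3, 7 in delta 1, and 6 in delta 2. Within lane 6 the beta library lay above both alpha libraries, and within lane 7 both beta libraries lay above both delta libraries. With lane as a term in limma the median differences were -0.51 for alpha minus beta and 0.36 for beta minus delta cells.

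**Figure D4:**
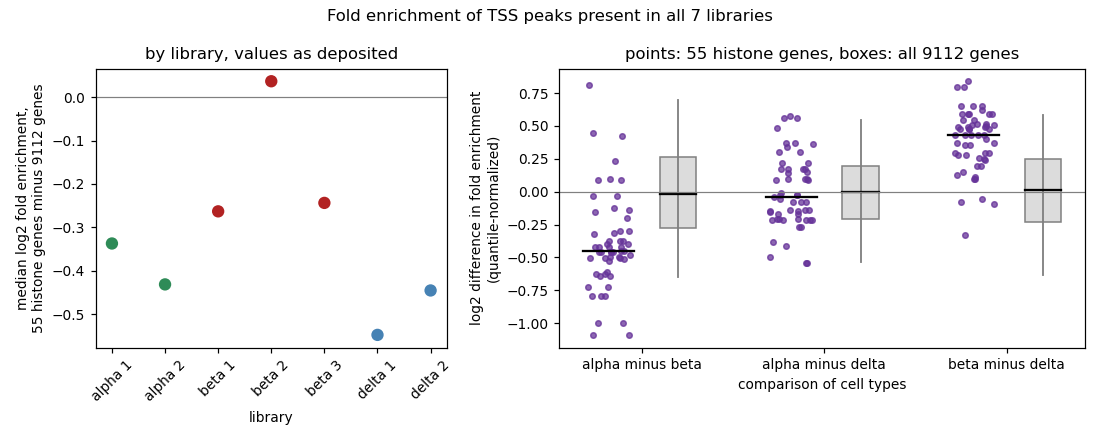
Left, the median log2 fold enrichment of the 55 histone genes minus that of all 9112 genes with a TSS peak in all 7 libraries, per library and without normalization, from -0.55 in delta 1 to 0.04 in beta 2. Right, log2 differences between cell types after quantile normalization, as points for the histone genes with a bar at the median, and as boxes (quartiles and median, with lines from the 5th to the 95th percentile) for all genes. Points lie mostly below 0 for alpha minus beta and above 0 for beta minus delta cells, the reverse of their direction without normalization.

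Other properties of the peak lists moved with this difference. The number of unique mapped reads did so in part, since the second delta library was among those with fewer reads. The beta lists held the fewest peaks past a -log10 q of 2, between 25903 and 38058, beside 41683 to 52057 in alpha and delta lists, and their histone peaks were narrower. The median width was 390 bp, 387 bp, and 438 bp in beta 1, beta 2, and beta 3, and between 577 bp and 715 bp in the other 4 libraries. Over all genes with a TSS peak the peaks of the beta lists were narrower as well, with medians of 315 bp, 373 bp, and 410 bp beside 475 bp to 573 bp. The part of these properties in the difference was not tested.

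Repeated sequence bears on how reads at these genes are placed. Histone genes of a class are near copies of each other, and reads were 50 bases long, so each stretch of 50 bases within 1 kb of a start was looked up in the whole genome. The median share of stretches found only once was 80.7% for the histone genes and 100% for all protein-coding genes, and 49 of the 67 histone genes lay under 90%, beside 13.3% of all genes. Hist1h2bq, Hist1h2br, Hist1h2ao, and Hist1h2ap had no unique stretch at all. Hist1h2bq and Hist1h2br shared 99.9% of their stretches at a distance of 23.5 kb, and Hist2h3c2 and Hist2h3c1 shared 77.6%. A read from a stretch that copies share cannot be placed by its sequence. How the aligner's choice among copies was filtered is not given in the sources used here.

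The more repeated genes more often had a TSS peak in all 7 libraries. Of the 49 histone genes under 90% unique, 46 were open in all 7 libraries, and of the 18 at or above 90%, 9 were, which is 50% beside 41.5% of all genes. With only the 500 bases upstream of the start considered, where promoters lie, 32 of 32 genes under 90% unique were open throughout, and 23 of 35 at or above it, which is 65.7% beside 44.6% of the 19150 protein-coding genes with such unique upstream sequence. All 6 H1 genes were at least 92.1% unique and are among these 18, so the H1 class held no gene under 90%. Of the 6 H1 genes, 2 were open throughout, beside 9 of the 18 histone genes at or above 90%. The part of uniqueness in the H1 counts was not tested.

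**Figure D5:**
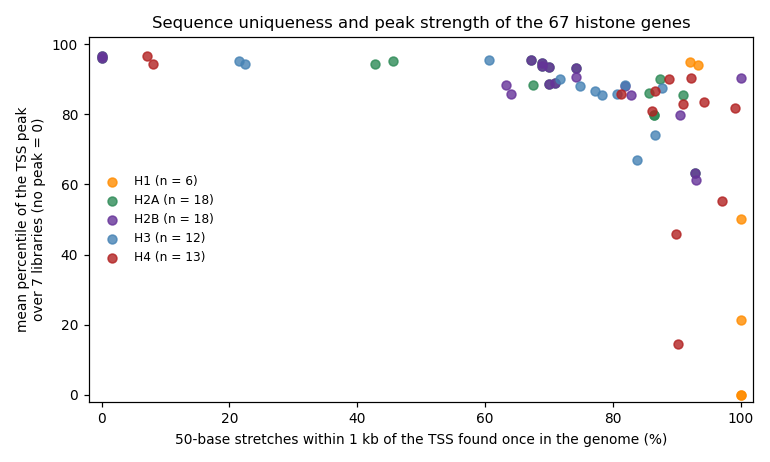
Share of 50-base stretches within 1 kb of the TSS that occur once in the genome (horizontal axis, %) and mean percentile of the TSS peak over the 7 libraries (vertical axis, absent peak as 0) for the 67 histone genes, coloured by class. All genes under 80% unique have a mean percentile above 80, and the genes under 50 on the vertical axis lie at 89.95% unique or more.

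The difference between beta and other cells was set beside how unique the sequence is. Only 3 tested genes, Hist1h1c, Hist1h4h, and Hist2h4, had a strongest peak at least 90% unique in every library. Their median log2 difference was -0.50 for alpha minus beta and 0.15 for beta minus delta cells, with 2 of 3 in the direction of the group each time. For the 52 others it was -0.45, with 46 of 52 below 0, and 0.43, with 49 of 52 above 0. Split by the 500 bases upstream of the start, the 23 tested genes at least 90% unique and the 32 others had nearly the same median for beta minus delta cells, 0.43 in both, and medians of -0.31 and -0.46 for alpha minus beta cells. None of these groups of genes were compared by a test, and the part of repeated sequence in the beta difference was not tested.

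Promoter sequence set the classes apart. From 250 bases before to 50 after the start, on both strands, CCAAT occurred at 18 of 18 H2A, 18 of 18 H2B, 11 of 12 H3, 5 of 6 H1, and 4 of 13 H4 genes, which is 83.6% of all histone genes beside 39.0% of all protein-coding genes. TATAAA occurred at 55.2% beside 12.6%. ATTTGCAT occurred at 7 H2A and 8 H2B genes and at none of the other classes, 22.4% of the histone genes beside 1.57% of all genes. AAACACA occurred at 4 of 6 H1 genes and at 13.4% of all histone genes, beside 6.4% of all genes. Each motif was counted on its own, overlaps with another included, and a match is not evidence of binding.

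Motifs did not separate open from other histone genes in an obvious way. CCAAT was present at 48 of the 55 genes open in all 7 libraries and at 8 of the 12 others. ATTTGCAT was present at 13 of 55 and 2 of 12, TATAAA at 29 of 55 and 8 of 12, and AAACACA at 6 of 55 and 3 of 12. The median GC content of these promoters was 45.3%, beside 55% over all genes, while their median CpG observed/expected ratio was 0.75, beside 0.525. At the 3′ side, a form of the histone stem-loop, with any base at 1 place of its loop, was found within 300 bases of the annotated gene end at 35 of the 67 genes. It read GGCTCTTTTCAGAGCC at 27, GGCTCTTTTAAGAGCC at 7, and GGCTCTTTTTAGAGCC at 1 of them, and the genes were 15 H2A, 11 H2B, 6 H3, and 3 H1 genes, with no H4 gene. All other bases were fixed in this search, so stem-loops with other bases were not counted, and a gene without a match may still carry one.

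The histone genes stood out from the genes between and beside them. Of 72 other protein-coding genes with a start within the clusters or 100 kb around them, 14 had a TSS peak in all 7 libraries, which is 19.4%, beside 41.5% of all genes. The 40 vomeronasal and olfactory receptors among them, which serve the nose, had 0 open throughout, and the 32 others 14. The strongest neighbour was Zfp322a, a zinc finger gene, with percentiles from 99.5 to 99.9, followed by Wbp11, a splicing factor gene that shares its peak with BC049715, and Btn2a2, a butyrophilin gene. H2afj, a variant H2A gene beside Hist4h4, was open in all 7 libraries, with percentiles from 85.4 to 97.6, where Hist4h4 was open in 5.

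Genes that act on histones and their transcripts were mostly open throughout. Of 19 genes of histone gene transcription and 3′ end processing, 16 had a TSS peak in all 7 libraries (84.2%, beside 41.5% of all genes), among them Npat, which binds at histone loci, from percentile 92.3 to 99.2, Slbp, which encodes the stem-loop binding protein, from 85.4 to 97.1, and Casp8ap2, from 98.8 to 99.9. Lsm10, a component of the U7 snRNP, lacked a TSS peak in beta 2. Nfyc, which encodes a subunit of the CCAAT-binding factor NF-Y, and Zfp473 lacked one in every library at the annotated starts used here. All 9 genes listed with the histone chaperones, Hat1 and Atrx among them, and 11 of 12 cell cycle genes were open throughout, with Top2a (topoisomerase) absent in delta 2.

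Of 13 replication-independent histone genes, 8 were open in all 7 libraries (61.5%, beside 82.1% of the clustered genes and 41.5% of all genes). At a -log10 q of 2 or more, 3 of 13 were (23.1%, beside 31.1% of all genes). H3f3a and H3f3b both encode H3.3, and the former was open throughout while H3f3b had no TSS peak in any library. As at Hist1h1d, such an absence holds for the annotated start used here. H2afz had percentiles from 98.3 to 99.5 and H2afx from 86.0 to 98.2. The linker variants differed, as H1 genes did within the clusters. H1f0, the linker histone of resting cells, had percentiles of 77.1 in alpha 1, 73.2 in alpha 2, 24.1 in beta 2, and 48.8 in delta 2, and none in beta 1, beta 3, and delta 1. H1fx had 91.4 in alpha 1, 89.4 in alpha 2, 18.5 in beta 3, 88.5 in delta 1, and 69.8 in delta 2, and none in beta 1 and beta 2. Both were open in all alpha libraries and in 1 of 3 beta libraries, which is not a selective call by the rule above. H1foo had a TSS peak in 3 libraries and H1fnt in none, so no linker variant of the 13 genes was open throughout. The share of 61.5% thus depends on which variants were listed.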

How the data were processed

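ATAC-Seq peak lists of 2 alpha, 3 beta, and 2 delta libraries were analysed, grouped by their labels. Per the labels and the study's methods, reads were single-end and 50 bases long. The authors used Trimmomatic for trimming, Bowtie 2 for alignment to GRCm38 (mm10) with the mitochondrial genome left out, Picard for duplicates, a blacklist filter, and MACS2 for peaks in each library. Versions and the MACS2 threshold are not given in the sources used here. The authors' lists give a fold enrichment (a ratio), a -log10 p, a -log10 q, and a score derived from the -log10 p. The lowest -log10 p was 2.01 in each list. The study tested read counts, which peak lists do not hold, so peak presence and fold enrichment were compared here.

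Rows repeating an interval were counted once. The TSS was the 5′ end of the GENCODE vM21 gene, and the strongest peak within 1 kb was scored. Limma 3.58.1 (R 4.3.3) with a trend was fitted to all 9112 genes with a TSS peak in each library, with 3 groups sharing 1 spread, after checks on simulated data. The labels call the replicates biological, and p-values measure the spread between these libraries. The histone genes and gene lists were chosen with earlier results of these data known. Named genes were the highest and lowest of each class by mean percentile, those without a peak, those of Hist3 and Hist4, the testis genes, the 3 strongest open neighbours, and list genes differing in presence. Others (Hist1h1a, Hist1h1b, Hist1h1c, Hist1h2ab, Hist1h3b, Hist1h2be, Hist1h4c, Hist1h4h, Hist1h4i, Hist2h4, Hist1h3g, Hist1h2ac with Hist1h2bc, H3f3a, H3f3b, H1fnt, Nfyc, Zfp473, and the copied genes) were chosen after their values were seen, as was AAACACA. Of the 6 acinar markers 1 did not match, and at most 2 of the other 5 had a TSS peak in a library. At most 1 of 3 duct and 2 of 3 mesenchymal markers had one. Of the 6 alpha markers 2 and of the 7 beta markers 3 were open in all 7 libraries. Sequences came from the RefSeq GRCm38 genome.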

Additional observations from a re-analysis of the deposited data

How the results depend on the processing

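Of the counts and shares by presence, none changed direction. With peaks past a -log10 q of 2 the mean share of open histone genes was 92.5% in alpha and 82.6% in beta libraries, and with the 50000 strongest peaks per list 92.5% and 86.1%. A 3 kb window left 0 genes without a peak and gave 98.5%, 96.5%, and 98.5% in alpha, beta, and delta libraries. A 250 bp window left 4 without and gave 90.3%, 76.6%, and 90.3%, median percentiles of 86.4 in alpha and 88.6 in beta libraries, and 3 genes selective for alpha (1.76% of all genes) and 2 for delta (1.21%) against beta cells. With the summit within 1 kb the shares were 91.8% in alpha and 85.6% in beta libraries, and 1 gene was selective for alpha (1.35% of all genes) and 1 for delta (0.843%) against beta cells. RefSeq starts and start codons as definitions of the start were chosen after seeing the data. RefSeq starts left 1 gene without a peak and gave 95.5% in alpha libraries, and start codons left 1 without and gave 95.5% in alpha and 96.3% in delta libraries. Genes open in all 7 libraries numbered from 39 (250 bp window) to 61 (3 kb window), always at a higher share than of all genes. Starts of any transcript, and the beta libraries of lane 7 alone against delta cells, changed no result. Leaving out 1 library in turn gave 0 to 2 genes selective for alpha and 0 to 1 for delta against beta cells, both above 0 without beta 3 (2.35% and 1.72% of all genes), 55 to 58 genes open in all remaining libraries, and 0 calls by limma. A cell type left with 1 library gave no count of open or selective genes, since these need 2 replicates. The cause of these changes was not tested.

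For alpha minus beta cells limma called 1 histone gene, higher in beta cells, under median centring (3.83% of all genes called) and on log2(-log10 p + 1) (2.97%), 1 higher in alpha cells without normalization (2.38%), and 0 under the other settings except the replicate block. Without normalization the median difference of the histone genes was 0.09 for alpha minus beta, beside 0.47 over all genes, and -0.17 for beta minus delta, beside -0.52, so the direction of the group turned while its position relative to all genes did not. The deviations of replicates that share a number from their group means had correlations from -0.0377 to 0.0303 over the 9112 genes. Both alpha and delta pairs gave -0.0377, since deviations within a group of 2 libraries mirror each other. Whether libraries that share a number come from the same animals was not tested. Sex follows the numbers in the same way in alpha and delta libraries but not in beta libraries. Pairs by sex were not checked, and sex was not a term in limma. With the replicate block limma called 1 histone gene for alpha minus beta and 0 in the other 2 comparisons, and 264, 2, and 117 genes in all.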

Other observations

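Some genes of the clusters are annotated as pseudogenes and were not among the 67. Hist1h2aj had a peak within 1 kb of its start in all 7 libraries, at percentile 91.2 in alpha 1, 86.4 in alpha 2, 97.8 in beta 1, 94.1 in beta 2, 86.5 in beta 3, 91.8 in delta 1, and 86.4 in delta 2. Hist3h2bb-ps, which lies beside Hist3h2a, shared the peak of Hist3h2a in every library. Hist1h2al, which lies at chr13:51202727-51203065, away from the Hist1 cluster, had one in 6 libraries, at percentiles from 62.2 in delta 2 to 90.9 in beta 1, and none in beta 2.

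Summits at histone genes had a median farther upstream than those of all genes. The median summit was between 65 bp and 103 bp upstream of the start in the 7 libraries, beside 10 bp to 18 bp upstream over all genes with a TSS peak. The upper quartile lay farther downstream at histone genes in 6 of the 7 libraries, such as 235 bp beside 154 bp in alpha 1, so the summits were also more spread.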
